A study of Mus musculus with 8 samples.

Results

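The genes described here are 37 genes of cholesterol and fatty acid synthesis and of their control, measured by RNA sequencing in mouse hypothalamus. They were chosen by name, and all 37 were found among the 55487 genes of the count table. The mice were C57BL/6J, an inbred laboratory strain. The hypoxia group breathed 7% oxygen in nitrogen for 2 hours in a chamber, and the normoxia group was kept at 21% oxygen for the same 2 hours. Each group has 4 libraries, which the design text calls biological replicates. No genotype, transgene or drug differed between the groups, and the sources used here give no sex or age. The comparison asks which transcripts of lipid synthesis differ after a short exposure of the whole animal to low oxygen.

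Cholesterol is built from acetyl-CoA through mevalonate and farnesyl pyrophosphate to squalene, which is oxidised, closed into lanosterol and trimmed to cholesterol. Several late steps consume molecular oxygen, as do the desaturases that put double bonds into fatty acids. Transcription of the pathway is driven by SREBP factors, which SCAP escorts out of the endoplasmic reticulum when sterols are low and which INSIG proteins hold back when sterols are high. Oxysterols activate the LXR receptors, which turn on export. The blood-brain barrier keeps out circulating cholesterol, so the brain makes its own, much of it in the oligodendrocytes that build myelin and in astrocytes.

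The libraries held 16994473 to 21694383 counts, and all 37 members passed the filter on low counts in this table. Of 5 known hypoxia-induced genes, 5 were called higher, among them Vegfa at a log2 of 1.29 and Ankrd37 at 1.84, at an adjusted p under 0.05 by edgeR's quasi-likelihood test. These 5 were chosen with earlier results of these data known, so that outcome is in part fixed. Over all 17047 genes tested the calls were 156 higher and 210 lower, and scaling by library size alone gave 146 and 342. In all, 3 libraries stand apart. Normoxia replicate 2 had a summed level of 7 cortical neuron markers of 439.5 CPM (counts scaled to the library's total), against 26.0 to 104.6 CPM in the other 7 libraries. Its summed pituitary markers were 80.3 CPM, against 42.3 CPM in hypoxia replicate 4 and 0.193 to 9.64 CPM in the remaining libraries. Most of its sum was Prl (40.4 CPM) and Gh (38.9 CPM). Cga (0.744 CPM) and Tshb (0.213 CPM) were not highest in it, and Lhb was at 0 throughout. The summed hypothalamic markers of normoxia replicate 2 were 369 CPM against 568 to 816 CPM. Normoxia replicate 1 had a summed level of 6 thalamus markers of 423 CPM, against 166 to 243 CPM in the other 7 libraries. Of these, Prkcd was at 133 CPM against 19.1 to 36.3 CPM, while Zic1 was not raised, at 91.0 CPM against 68.5 to 96.2 CPM. Hypoxia replicate 4 had a Vegfa level of 134 CPM, against 220.3 to 222.9 CPM in the other hypoxia libraries. In whole tissue, fewer cells of a type and less RNA per cell cannot be told apart.

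No member passed the test for a difference between 7% and 21% oxygen. Of the 37 members, 0 were called higher and 0 lower by edgeR's quasi-likelihood test (p adjusted over the whole table by Benjamini-Hochberg, threshold 0.05), against 2.15% of the 17047 genes tested. By DESeq2 and by limma-voom 0 were called as well. At an unadjusted p under 0.05 there were 3 members (8.11%), against 19.3% of all genes. The 4 hypoxia and 4 normoxia values did not overlap in 2 members (5.41%), against 13.4% of all genes. Both shares lie below the background, but they rest on 3 and 2 genes, and the members vary together. At a share of 2.15%, 0 calls among 37 genes is not in itself unusual. No test of these shares was made.

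The changes that remain possible are small for most members. The 95% interval of the fold change lay within 1.5-fold in either direction for 35 of 37 members, or 94.6%. That was so for 67.9% of all genes tested, and for 84.5% of the 13068 genes with a mean level at least that of the least abundant member. The exceptions were Idi1 and Fdps. The median log2 change of the members was −0.049, with 12 positive and 25 negative values, against a median of −0.0085 over all genes. Without normoxia replicate 1 the members' median was −0.0091, with 18 positive values, and without normoxia replicate 2 it was −0.074, with 10. The median SD within groups was 0.11 on the log2 scale, against 0.15 over all genes. It was 0.12 over the 13068 genes at member level or above, close to that of the members.

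**Figure D1:**
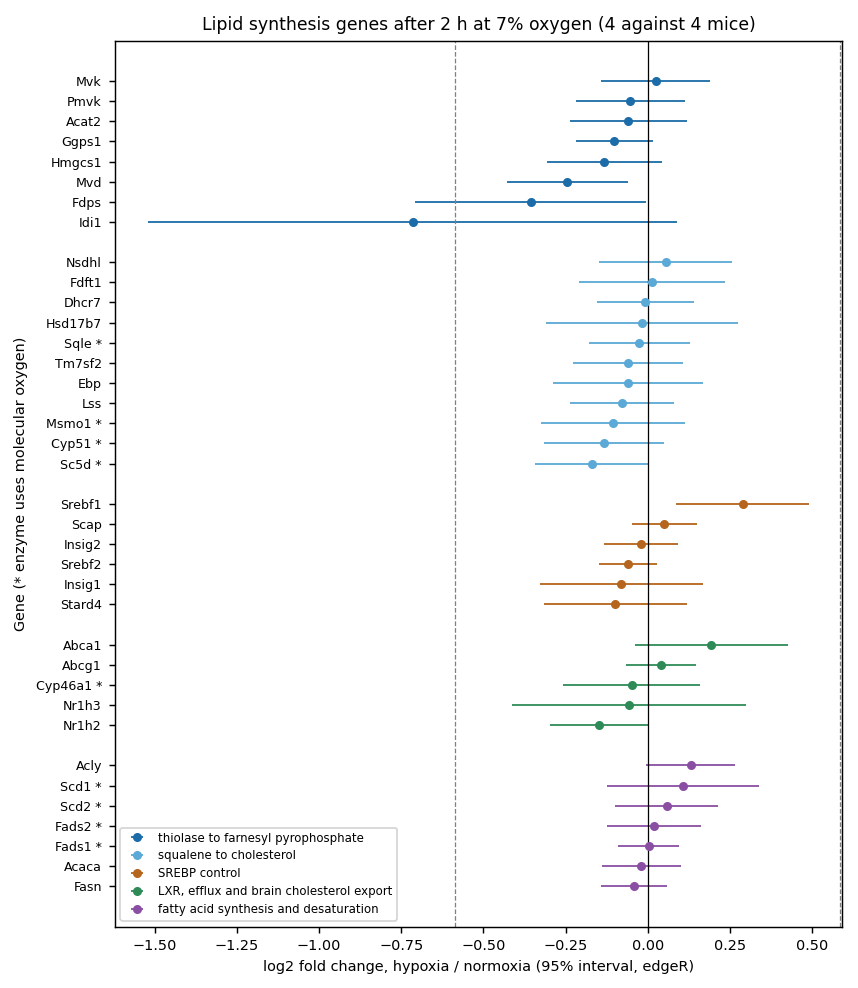
Log2 fold change of each of the 37 genes, hypoxia over normoxia (x axis), with its 95% interval from edgeR (4 libraries a group), by role (colours). Dashed lines mark 1.5-fold in either direction, and 35 intervals lie between them. Asterisks mark the 9 genes whose enzyme uses molecular oxygen.

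**Figure D2:**
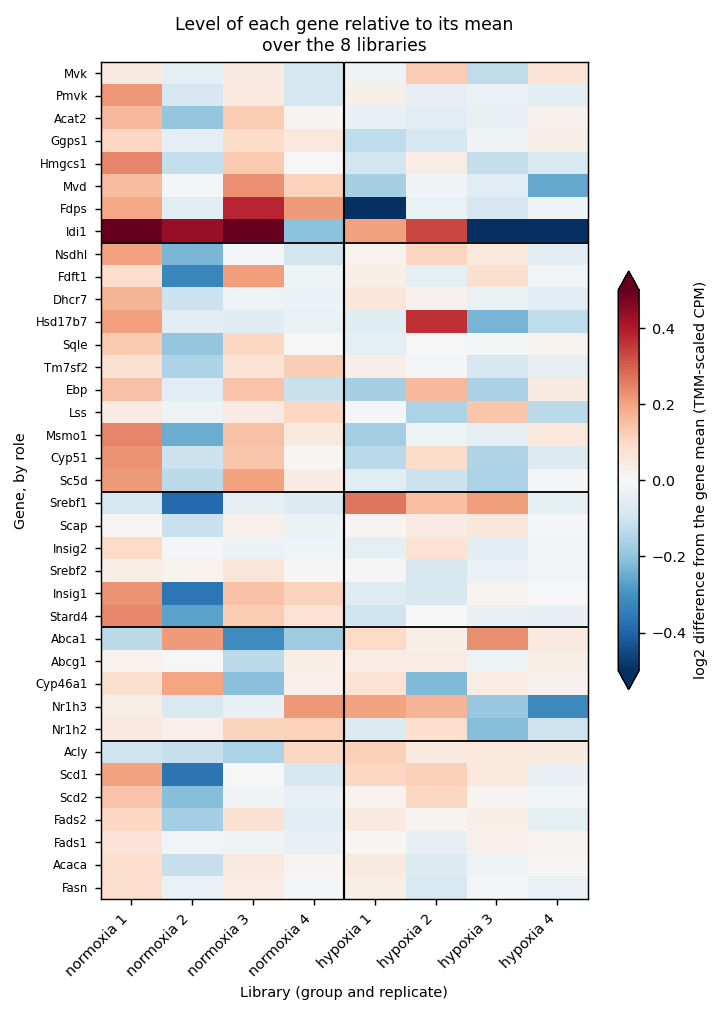
Level of each of the 37 genes (rows, by role) in each of the 8 libraries (columns), as the log2 difference from the gene's mean over all libraries, with colours saturating at 0.5. Normoxia replicate 1 is high and normoxia replicate 2 low for many genes, while the 4 hypoxia libraries lie mostly between them.

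Levels spanned a wide range. Per kilobase of exon, the most abundant member was Scd2, the main stearoyl-CoA desaturase of brain, at a mean of 483 CPM per kb over the 8 libraries. Scd1, its close relative, followed at 80.3 CPM per kb and Fads2, a polyunsaturated fatty acid desaturase, at 77.0 CPM per kb. Over the libraries Scd1 ran from 62.0 to 91.6 and Fads2 from 68.3 to 82.5 CPM per kb, so their order is not resolved. Among sterol enzymes Hmgcs1, the synthase of the mevalonate route, was highest at 57.7 CPM per kb. At the other end Nr1h3, which encodes LXR alpha, stood at 1.35 CPM per kb, and Fdps at 1.21 CPM per kb. The Fdps level is uncertain, because 26.7% of its exon bases overlap Gm43738 on the same strand, a gene with 0 counts in every library. The LXR beta gene Nr1h2 was at 12.4 CPM per kb.

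**Figure D3:**
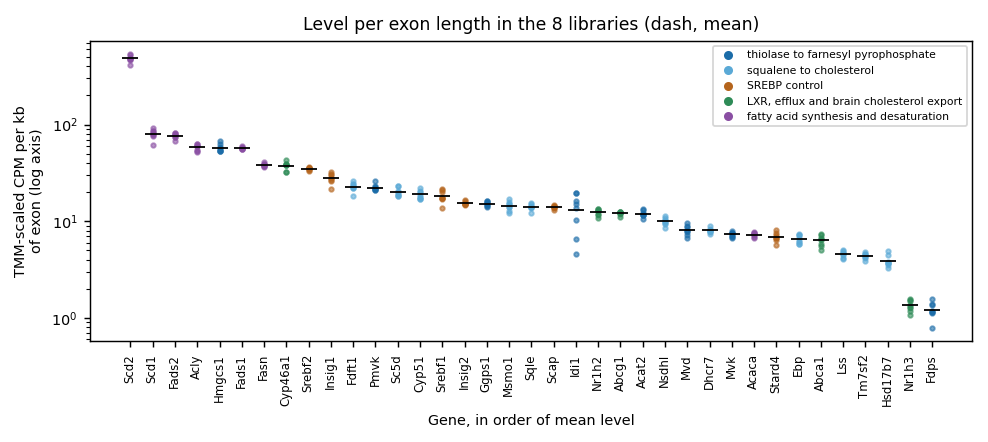
Level per kilobase of exon (log axis) of each of the 37 genes in the 8 libraries (points) with its mean (dash), ordered by mean and coloured by role. Scd2 lies above all others at a mean of 483 CPM per kb, and Nr1h3 and Fdps lie lowest.

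Some members share sequence with other genes, which makes their counts uncertain because the sources used here do not say how multiply mapped reads were handled. A search of the GENCODE transcripts for shared 50-base words found under 1% shared with another gene in 21 members and over 10% in 6 members. The shares were 39.1% for Acat2, with the paralog Acat3 as the largest contributor, and 30.4% for Acaca, with a processed pseudogene. They were 26.5% for Fdft1, which overlaps Ctsb on the opposite strand, 26.2% for Fdps, 25.3% for Idi1 with 4 pseudogenes and 11.6% for Hmgcs1. For Fdps the largest contributor was Gm43738, a protein-coding gene that overlaps 1124 of its exon bases on the same strand, and 7 pseudogenes also shared words. In all, 8 members overlap an exon of another gene on the opposite strand, and 12 overlap one on either strand. The library kit keeps strand, but the strand setting of the counting is not given.

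In the route from acetyl-CoA thiolase to farnesyl pyrophosphate, 0 of 8 genes were called, 2 had an unadjusted p under 0.05, and 7 of 8 log2 changes were negative, with a median of −0.12, or −0.071 without normoxia replicate 1. Mvd (ENSMUSG00000006517, chr8:122433601-122443422, minus strand, GRCm38) encodes mevalonate diphosphate decarboxylase. Its levels were 13.4, 14.9, 14.5 and 12.6 CPM in hypoxia replicates 1 to 4 and 16.8, 14.996, 17.6 and 16.3 CPM in normoxia replicates 1 to 4. All 4 hypoxia values lay below all 4 normoxia values, with only a narrow gap between hypoxia replicate 2 and normoxia replicate 2. The log2 change was −0.24 ± 0.08 (SE, n = 4 each), with an unadjusted p of 0.0142 and an adjusted p of 0.145 by edgeR's quasi-likelihood test.

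Fdps (chr3:89093588-89101959, minus strand) encodes farnesyl pyrophosphate synthase, which supplies both sterols and the prenyl groups attached to proteins. Its levels were 3.34, 4.90, 4.73 and 4.94 CPM in hypoxia and 5.74, 4.84, 6.55 and 5.81 CPM in normoxia. Hypoxia replicate 1 was lowest, and normoxia replicate 2 lay among the hypoxia values. The log2 change was −0.36 ± 0.16 (SE), with an adjusted p of 0.254 by edgeR.

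Idi1 (chr13:8885501-8892451, plus strand) encodes isopentenyl diphosphate isomerase. Its levels were 47.9, 52.4, 16.2 and 23.0 CPM in hypoxia and 68.5, 56.2, 68.5 and 36.0 CPM in normoxia. Hypoxia replicates 3 and 4 were lowest, and normoxia replicate 4 lay below hypoxia replicates 1 and 2, so the groups overlapped. The log2 change of −0.72 ± 0.36 (SE) was the most negative of the 37, with an adjusted p of 0.31 by edgeR and a 95% interval from −1.52 to 0.091. Its SD within groups was 0.66 on the log2 scale, and 1.16% of the 13068 genes at member level or above had a larger one.

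Ggps1 (chr13:14050659-14063488, minus strand) makes the longer prenyl donor geranylgeranyl pyrophosphate. Its levels were 65.6, 67.6, 70.8 and 73.1 CPM in hypoxia and 77.0, 69.6, 76.4 and 74.4 CPM in normoxia, where only replicate 2 reached into the hypoxia range (log2 −0.10 ± 0.05, SE). Hmgcs1 (chr13:119690379-119708260, plus strand) stood at 244 to 271 CPM in hypoxia and 242 to 313 CPM in normoxia, a log2 change of −0.13. Ggps1 and Hmgcs1 overlapped between the groups, as did the remaining 3 genes of this route. Acat2, the cytosolic thiolase, was at 29.3 to 30.8 CPM in hypoxia and 26.5 to 33.9 CPM in normoxia (log2 −0.059). The mevalonate kinase gene Mvk was at 17.9 to 21.3 and 18.3 to 20.1 CPM (log2 0.024), and the phosphomevalonate kinase gene Pmvk at 36.8 to 38.98 and 36.0 to 44.4 CPM (log2 −0.053).

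In the second arm, from squalene to cholesterol, 0 of 11 genes were called, 0 had an unadjusted p under 0.05, and all 11 intervals lay within 1.5-fold. Here 9 of 11 log2 changes were negative, with a median of −0.059. These depended on single normoxia libraries: without replicate 1 the median was −0.014 with 5 of 11 positive, and without replicate 2 it was −0.084 with 0 positive. Sc5d (chr9:42251595-42264256, minus strand), which encodes the oxygen-using lathosterol oxidase, had the smallest p of this arm. Its levels were 94.1, 90.9, 87.8 and 97.7 CPM in hypoxia and 114, 89.5, 113 and 100.9 CPM in normoxia. The hypoxia values lay below those of normoxia replicates 1, 3 and 4, and normoxia replicate 2 lay among them. The log2 change was −0.17 ± 0.08 (SE), with an adjusted p of 0.269 by edgeR.

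The other genes of this arm lay close to 0. Cyp51, the lanosterol demethylase, was at 74.9 to 88.7 CPM in hypoxia and 77.3 to 97.1 CPM in normoxia (log2 −0.13). Msmo1, the sterol methyl oxidase, was at 79.0 to 92.1 and 74.8 to 105.0 CPM (log2 −0.11). Both enzymes use oxygen. Squalene epoxidase, encoded by Sqle and the first oxygen-using step, was at 75.5 to 78.9 CPM in hypoxia and 68.2 to 85.4 CPM in normoxia (log2 −0.025, 95% interval −0.18 to 0.13). The hypoxia libraries thus spanned a narrower range than the normoxia libraries and lay inside it. The squalene synthase gene Fdft1 was at 93.0 to 101.5 CPM in hypoxia and 76.6 to 111 CPM in normoxia (log2 0.015). The lanosterol synthase gene Lss was at 44.1 to 54.3 and 48.4 to 52.9 CPM (log2 −0.077). The demethylation gene Nsdhl was at 27.3 to 30.5 and 24.1 to 32.5 CPM (log2 0.055), and Hsd17b7, of the same step, at 16.7 to 25.3 and 18.8 to 22.7 CPM (log2 −0.017). The reductase and isomerase genes of the later steps also overlapped between the groups. Tm7sf2 was at 18.2 to 19.6 and 17.3 to 20.9 CPM (log2 −0.059), the isomerase gene Ebp at 13.5 to 16.9 and 14.03 to 16.8 CPM (log2 −0.060), and Dhcr7 at 44.9 to 48.7 and 43.4 to 52.6 CPM (log2 −0.0074).

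Of the 9 members whose enzyme consumes oxygen, 0 were called, 0 had an unadjusted p under 0.05, and all 9 intervals lay within 1.5-fold. Their median log2 change was −0.025, against −0.055 for the other 28 members. It turned to 0.020 without normoxia replicate 1 and was −0.051 with library size scaling, where the median of all genes was −0.034. The 4 sterol enzymes among them all had negative values, with a median of −0.12, but Sqle turned to 0.020 without normoxia replicate 1. The 4 desaturases all had positive values, with a median of 0.039. Fads1 and Fads2 turned negative with that scaling, and also without both normoxia replicate 2 and hypoxia replicate 4. No test of this difference in sign was made, and every one of these genes overlapped between the groups.

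Among the genes of SREBP control, 0 of 6 were called, and the one with an unadjusted p under 0.05 was Srebf1. Srebf1 (ENSMUSG00000020538, chr11:60199089-60222581, minus strand) encodes SREBP-1, the form that favours fatty acid genes. Its levels were 123, 113, 118 and 98.6 CPM in hypoxia and 96.0, 77.8, 98.9 and 97.0 CPM in normoxia. Hypoxia replicates 1 to 3 lay above all normoxia values, while hypoxia replicate 4 lay within the normoxia range and normoxia replicate 2 was lowest. The log2 change was 0.29 ± 0.09 (SE, n = 4 each), the most positive of the 37, with an unadjusted p of 0.0102 and an adjusted p of 0.127 by edgeR.

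Srebf2 (ENSMUSG00000022463, chr15:82147181-82205379, plus strand) encodes SREBP-2, the form that favours cholesterol genes. Its levels were 253, 237, 246 and 249 CPM in hypoxia and 257, 254, 262 and 253 CPM in normoxia. The groups did not overlap, but hypoxia replicate 1 and normoxia replicate 4 differed by less than 1 CPM. The log2 change was −0.059 ± 0.04 (SE), with an adjusted p of 0.445 by edgeR. Its SD within groups of 0.031 was the smallest of the members, and 1.17% of genes at member level or above had a smaller one.

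The INSIG proteins and SCAP sense sterols. Insig1 (chr5:28071363-28078662, plus strand), itself an SREBP target, was at 82.1, 81.2, 86.7 and 85.7 CPM in hypoxia and 100.1, 66.7, 94.98 and 92.9 CPM in normoxia. The hypoxia values were tight and lay between normoxia replicate 2 and the other 3 normoxia libraries (log2 −0.080, adjusted p = 0.733 by edgeR). Insig2, the form less tied to SREBP, was at 51.6 to 56.3 CPM in hypoxia and 52.4 to 57.2 CPM in normoxia (log2 −0.019). Scap was at 103.7 to 108.4 CPM in hypoxia and 96.6 to 106.2 CPM in normoxia (log2 0.051). Stard4, which carries cholesterol between membranes, had −0.098 and showed the order seen for Insig1, with normoxia replicate 2 at 31.9 CPM, hypoxia at 35.8 to 38.5 CPM and the other normoxia libraries at 40.4 to 45.3 CPM.

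**Figure D4:**
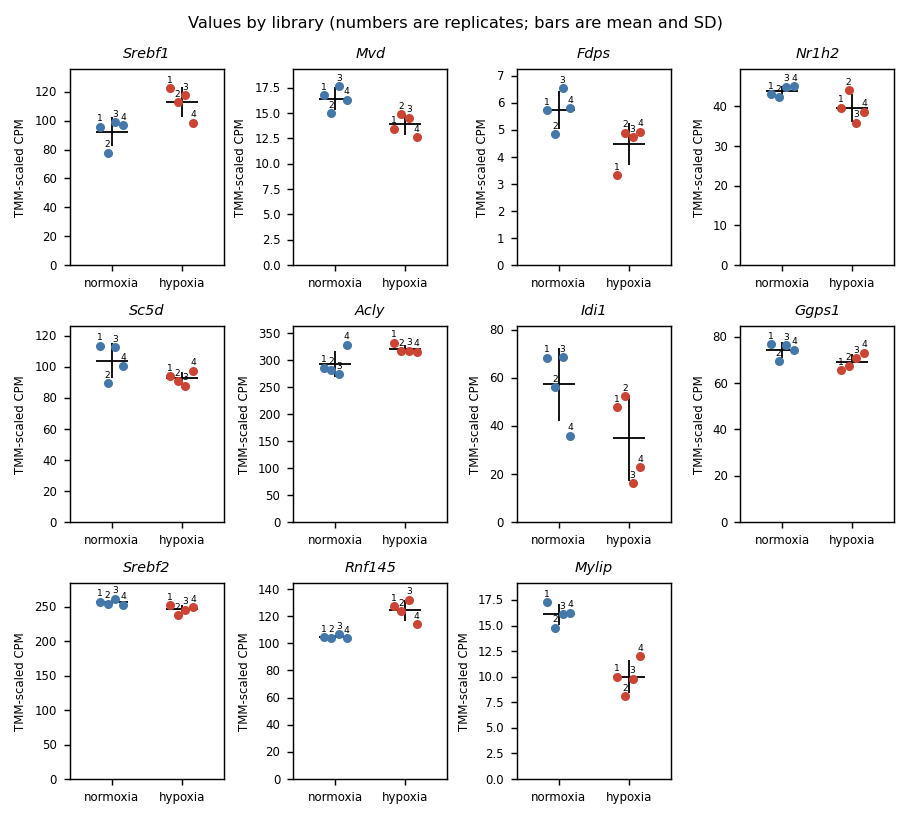
TMM-scaled CPM in each library (points, numbered by replicate; bars are mean and SD, n = 4) for the 8 members with the smallest p, for Srebf2, and for the called genes Rnf145 and Mylip. Rnf145, Mylip, Mvd and Srebf2 do not overlap between the groups, and hypoxia replicate 4 lies nearest to normoxia for Srebf1, Rnf145 and Mylip.

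In the LXR and export group, 0 of 5 genes were called and 0 had an unadjusted p under 0.05. Nr1h2 (chr7:44549616-44553951, minus strand) was at 39.7, 44.1, 35.9 and 38.7 CPM in hypoxia and 43.0, 42.3, 44.9 and 45.1 CPM in normoxia. Only hypoxia replicate 2 reached the normoxia range (log2 −0.15 ± 0.07, SE; adjusted p = 0.267 by edgeR). Abca1 (chr4:53030787-53159895, minus strand), the LXR target that loads cholesterol onto lipoproteins, was at 69.97, 66.6, 76.8 and 67.5 CPM in hypoxia and 59.6, 75.6, 52.5 and 57.8 CPM in normoxia. Here normoxia replicate 2 lay among the hypoxia libraries, and the other 3 normoxia libraries lay below them (log2 0.19 ± 0.10, SE; adjusted p = 0.34 by edgeR). Abcg1, another LXR-regulated exporter, was at 86.9 to 90.8 CPM in hypoxia and 80.7 to 90.1 CPM in normoxia (log2 0.041). Nr1h3 was at 2.70 to 3.87 and 3.19 to 3.91 CPM (log2 −0.057). Cyp46a1, the neuronal hydroxylase that makes cholesterol able to leave the brain, was at 105.2 to 128.9 and 106.0 to 140.4 CPM (log2 −0.049).

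In fatty acid synthesis and desaturation, 0 of 7 genes were called, 0 had an unadjusted p under 0.05, and the median log2 change was 0.020. That median was 0.064 without normoxia replicate 1 and 0.0042 without normoxia replicate 2. It was −0.0054 with library size scaling, where the median of all genes also moved down, to −0.034. Without both normoxia replicate 2 and hypoxia replicate 4 it was −0.0053, against −0.00018 for all genes, so its sign is not settled. Acly (chr11:100476353-100528000, minus strand) encodes ATP citrate lyase, which makes cytosolic acetyl-CoA for both pathways. Its levels were 333, 317, 317 and 316 CPM in hypoxia and 286, 283, 274 and 329 CPM in normoxia. Normoxia replicate 4 lay among the hypoxia libraries and the other 3 lay below them (log2 0.13 ± 0.06, SE; adjusted p = 0.275 by edgeR). The carboxylase gene Acaca was at 119 to 129 CPM in hypoxia and 115 to 132 CPM in normoxia (log2 −0.019), and the synthase gene Fasn at 398 to 428.5 and 409.7 to 445 CPM (log2 −0.041). The desaturase genes overlapped as well. Scd2 was at 2608 to 2833 and 2273 to 2904 CPM (log2 0.058), Fads1 at 268 to 279.9 and 268 to 288 CPM (log2 0.0039), and Fads2 at 245 to 262 and 225 to 272 CPM (log2 0.020). Scd1 was at 381 to 424 and 303 to 448 CPM (log2 0.11). For Scd1, normoxia replicate 2 at 303 CPM lay below all others, at 370 to 448 CPM.

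The calls among the members depended on normoxia replicate 2. Without that library 3 of 37 members were called (8.11%), against 3.91% of the 17269 genes then tested. Abca1 was higher at a log2 of 0.31 ± 0.06 (SE; adjusted p = 0.0300, edgeR), Sc5d was lower at −0.23 ± 0.05 (0.0461), and Insig1 was lower at −0.19 ± 0.04 (0.0443). Normoxia replicate 2 lay among the hypoxia values for Abca1 and Sc5d and below them for Insig1. These 3 calls and their share are thus in part fixed by leaving that library out. Without both normoxia replicate 2 and hypoxia replicate 4, 4 of 37 were called (10.8%), against 6.98% of 17132 genes. These were the same 3 genes and Srebf1, at 0.28 ± 0.04 (SE; adjusted p = 0.00992, edgeR). The choice to leave these libraries out was made knowing that they stand apart. Hypoxia replicate 4 was the hypoxia library nearest to normoxia for Vegfa and for Srebf1, so the Srebf1 call is in part fixed by that choice. Without normoxia replicate 2 alone, Srebf1 had 0.22 (adjusted p = 0.0973, edgeR). Leaving out any 1 of the other 7 libraries gave 0 calls.

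The 2 outer libraries of normoxia set much of the spread of this pathway. Normoxia replicate 2 was the lowest normoxia library for 25 of 37 members (67.6%), against 35.2% of all genes tested. Normoxia replicate 1 was the highest for 22 of 37 (59.5%), against 23.1% of all genes. The mean log2 level of the 19 sterol enzymes relative to the 8 libraries was 0.19 in normoxia replicate 1, −0.092 in replicate 2, 0.14 in replicate 3 and 0.0025 in replicate 4. In hypoxia replicates 1 to 4 it was −0.069, 0.035, −0.13 and −0.081. The group means were −0.061 in hypoxia and 0.061 in normoxia, the groups overlapped, and the SD within normoxia was 0.13.

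Oligodendrocyte markers were ordered in part as the sterol enzymes were. Their summed level over 10 genes was 7046, 4019, 5247 and 4587 CPM in normoxia replicates 1 to 4 and 4257, 6183, 4341 and 4412 CPM in hypoxia replicates 1 to 4. Normoxia replicate 1 was highest and normoxia replicate 2 lowest in this sum, as in the sterol enzyme level over normoxia, and hypoxia replicate 2 was highest within hypoxia in both. Astrocyte markers varied less, from 3976 to 4286 CPM over 9 genes, and neuron markers from 3478 to 4212 CPM over 8 genes. Of the oligodendrocyte markers 0 of 10 were called, and of 6 oligodendrocyte precursor markers 1 was, Pdgfra (log2 0.26). Of 8 endothelial markers 1 was called, Slco1a4 (log2 −0.48), and of the astrocyte, neuron and microglia markers 0 were. The part of oligodendrocyte content, or of the cortical markers in normoxia replicate 2 and thalamus markers in normoxia replicate 1, in the members' values was not tested.

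**Figure D5:**
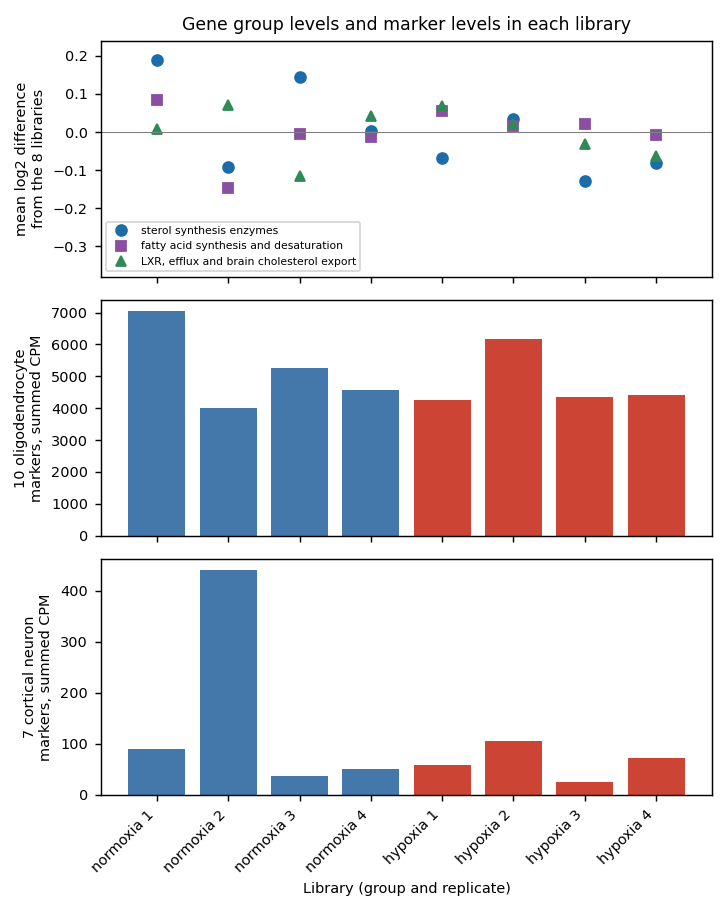
Top, mean log2 level of 3 member groups relative to the 8 libraries. Middle and bottom, summed CPM of 10 oligodendrocyte and 7 cortical neuron markers (bars; blue normoxia, red hypoxia). Normoxia replicate 1 has the highest sterol enzyme level and oligodendrocyte sum, and normoxia replicate 2 the highest cortical sum, at 439.5 CPM.

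The sterol enzymes varied together from library to library, and less so without normoxia replicates 1 and 2. After the group means were removed, the median pairwise correlation among the 19 sterol enzymes was 0.52 over the 8 libraries, with 91.2% of 171 pairs positive, against 0.0002 over all gene pairs. The libraries share their dissection and depth across all these pairs. The median was 0.32 without normoxia replicate 2 and 0.25 without normoxia replicates 1 and 2. For all 37 members the median went from 0.36 to 0.061 without those 2 libraries, with 53.3% of pairs then positive. It went from 0.57 to 0.050 for the arm from squalene to cholesterol and from 0.53 to −0.039 for the fatty acid genes. Normoxia replicates 1 and 2 were the highest and lowest of normoxia for most members, so this fall is in part fixed by leaving them out. No value over all gene pairs was computed without them. Single pairs over all 8 libraries follow, picked by hand out of 666 and not computed without normoxia replicates 1 and 2. Sqle and Msmo1 correlated at 0.97, as did Hmgcs1 and Cyp51, and Insig1 and Stard4 at 0.96. Lower values were 0.74 for Hmgcs1 and Insig1 and 0.43 for Fads1 and Fads2, while Scd1 and Fads2 had 0.94. Scd1 and Scd2, which share 4.6% and 4.0% of their words with other genes, correlated at 0.97. Srebf1 and Srebf2 correlated at 0.20. Abca1 went the other way, at −0.77 with Insig1 and −0.65 with Scd1.

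Genes that SREBP drives usually carry, near the start, a sterol regulatory element beside boxes for the partner factor NF-Y. In the 250 bases upstream of the RefSeq start (GRCm38.p6), both strands were searched in 29 of the 37 members that the promoter table holds. The NF-Y box CCAAT occurred in 21 of 29 (72.4%) and in 15 of 16 sterol enzymes, against 37.5% of 27025 genes and 39.9% of tested genes. The element TCACNCCAC occurred only in Hmgcs1 among these, against 1.22% of genes, and the GC box GGGCGG in 23 (79.3%), against 61.5% of tested genes. The core ACGTG or GCGTG that HIF can bind occurred in 17 (58.6%), against 59.0% of tested genes, which is no excess. These are letter matches, not bound sites, and a missing match says only that these letters are not in the window. Stretches are shown for 4 sterol enzymes, 2 of them (Hmgcs1 and Cyp51) a pair that correlated at 0.97 over the 8 libraries, each 5′ to 3′ on the gene's strand, with the NF-Y box (CCAAT, or ATTGG for the other strand) and the sterol regulatory element in capitals:
Hmgcs1: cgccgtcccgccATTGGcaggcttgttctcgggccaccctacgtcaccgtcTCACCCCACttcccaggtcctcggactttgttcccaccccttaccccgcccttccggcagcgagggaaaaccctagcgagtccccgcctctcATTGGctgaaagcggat
Cyp51: cgctgtccgccaCCAATctggtcctgaga
Msmo1: gagtggggcggaCCAATtacgacaggcga
Sc5d: cgccggctgctgATTGGccggctgcctgc
The Hmgcs1 stretch (chr13:119690163-119690322, plus strand) runs from 188 to 29 bases before the start and holds the element TCACCCCAC between 2 of its 3 NF-Y boxes. The others hold the box nearest the start for Cyp51 (chr5:4104710-4104738, minus strand), Msmo1 (chr8:64733617-64733645, minus strand) and Sc5d (chr9:42264308-42264336, minus strand). Their log2 changes with hypoxia were −0.13 for Hmgcs1, −0.13 for Cyp51, −0.11 for Msmo1 and −0.17 for Sc5d, none called. These 4 were picked for display and do not stand for all genes with the box: Mvk and Nsdhl, which also hold it, had 0.024 and 0.055. A link between the box and the change was not tested.

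Outside the members, 68 more genes of the same pathways were read from the same fit, and 66 were tested. Of these, 1 was called higher and 1 lower, or 2 of 66 against 2.15% of all genes. In all, 18 had an unadjusted p under 0.05 (27.3%, against 19.3% of all genes), and 11 did not overlap (16.7%, against 13.4%). Both called genes encode ubiquitin ligases that act on proteins of sterol homeostasis.

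Mylip (ENSMUSG00000038175, chr13:45389742-45412022, plus strand), an LXR target also called IDOL, encodes the ligase that marks receptors of the LDL receptor family for degradation. Its levels were 10.0, 8.10, 9.81 and 12.03 CPM in hypoxia and 17.3, 14.8, 16.1 and 16.3 CPM in normoxia. All hypoxia values lay below all normoxia values. Mylip fell by 0.69 on the log2 scale (SE 0.12, n = 4 each), with an adjusted p of 0.0284 by edgeR. It was called in 11 of 18 alternatives, not with the replicate number as a block, and with 1 library left out only without hypoxia replicate 4 or normoxia replicate 2, with log2 changes from −0.79 to −0.60 over those 8 fits.

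Rnf145 (ENSMUSG00000019189, chr11:44518964-44565520, plus strand) encodes a sterol-responsive ligase of the endoplasmic reticulum that acts on SCAP. Its levels were 127, 124, 132 and 114 CPM in hypoxia and 104.5, 104.1, 106.6 and 103.9 CPM in normoxia. The normoxia libraries lay within a narrow band, and hypoxia replicate 4 was the closest to it. Rnf145 rose by a log2 of 0.25 ± 0.05 (SE), with an adjusted p of 0.0460 by edgeR. It was called in 9 of 18 alternatives, again in the same 2 of the 8 fits that left out 1 library, and not under library size scaling, without the filter on low counts or with the replicate number as a block.

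By list, 1 of 11 other SREBP regulators was higher and 0 lower, and 0 of 24 tested genes of transport, storage and LXR partnership were higher and 1 lower. Of 10 other sterol and isoprenoid enzymes 0 were called, with Pdss1, which starts the tail of coenzyme Q, at the smallest p (log2 −0.16, adjusted p = 0.266 by edgeR). Of 21 other fatty acid enzymes 0 were called. There Elovl7, an elongase of long-chain fatty acids, had the smallest p. Its levels were 15.8, 18.7, 13.4 and 16.9 CPM in hypoxia and 25.6, 19.6, 23.6 and 22.2 CPM in normoxia, without overlap (log2 −0.49 ± 0.11, SE; adjusted p = 0.0610 by edgeR).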

How the data were processed

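RNA was measured in 8 libraries of mouse hypothalamus, 4 from mice at 7% oxygen and 4 at 21%, made with a kit that keeps strand, per the labels' protocols. The authors deposited raw read counts per Ensembl gene. Per the submitters' processing notes, Trimmomatic, HISAT2 2.0.4, SAMtools, featureCounts and DESeq2 were used with build mm10. The sources used here give no annotation release, strand setting or handling of multiply mapped reads.

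Symbols, positions and exon lengths came from GENCODE (GRCm38), which matched 55227 of 55487 genes. Genes were filtered with filterByExpr (minimum count 10, total 15) and tested together in edgeR 4.0.16 (R 4.3.3), with TMM scaling and the quasi-likelihood test on group alone. A gene was called at a p under 0.05 after Benjamini-Hochberg adjustment over the 17047 genes that passed the filter. CPM are TMM-scaled, and SE is the log2 change divided by the root of the F statistic. Alternatives were DESeq2 1.42.0, limma-voom (limma 3.58.1), other scalings, filters and forms of the test, a replicate block, adjusted p under 0.10, and libraries left out.

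The members and gene lists were chosen with earlier results of these data known. All 37 members are named, with all 8 values for those called, those whose groups do not overlap and the 8 with the smallest p, and the range in each group for the rest. The full values of Insig1, Abca1 and Elovl7 were added after their values were seen. Of each wider list, called genes or the gene with the smallest p are named. Same-numbered libraries did not deviate together, which cannot exclude that the numbers pair them, so a fit with the replicate number as a block is among the alternatives. Promoter windows came from RefSeq (GRCm38.p6).

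Marker lists not given in the text summed to 616 to 741 CPM in hypoxia and 568 to 769 CPM in normoxia for oligodendrocyte precursors, 283 to 312 and 267 to 321 for microglia, and 250.1 to 285.0 and 261 to 317 for endothelium.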

Additional observations from a re-analysis of the deposited data

Results flagged for a closer look

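In 5 of the 74 sets of 4 values (each member in each group), 1 library lay apart from the other 3 by Dixon's criterion, which chance meets in about 1 in 20. Srebf1 in normoxia replicate 2 was at 77.8 CPM, against 96.0 to 98.9 CPM in the other normoxia libraries. Fdps in hypoxia replicate 1 was at 3.34 CPM, against 4.73 to 4.94 CPM. Hsd17b7 in normoxia replicate 1 was at 22.7 CPM, against 18.8 to 19.2 CPM. Abcg1 in hypoxia replicate 3 was at 86.9 CPM, against 90.5 to 90.8 CPM. Acly in hypoxia replicate 1 was at 333 CPM, against 316 to 317 CPM.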

How the results depend on the processing

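Members called stayed at 0 under each scaling, filter and form of the test and at an adjusted p under 0.10. The count was 4 without normoxia replicate 2 and hypoxia replicate 4 together, and 0 to 3 with each library left out in turn. Over all genes, calls were 1008 with DESeq2, 1195 without both libraries, 1058 at an adjusted p under 0.10, and 26 to 693 with each library left out. Of the wider pathway genes, 5 were called with DESeq2, 5 without both libraries, 1 without the filter on low counts, and 0 to 3 with each library left out. With the replicate number as a block, 21 genes were called over all, with 0 members and 0 wider pathway genes. Same-numbered libraries correlated at 0.084, −0.145, 0.062 and −0.018 in their deviations. The members' median log2 change stayed negative, from −0.074 to −0.0091.

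Values near 0 changed sign in 13 members, in 32 of 666 values. With library size scaling and without both libraries, respectively, Mvk had −0.0011 and −0.0067, Fdft1 −0.012 and −0.070, Fads1 −0.021 and −0.0053, and Fads2 −0.0054 and −0.011. With each library left out, the log2 change ran from −0.012 to 0.068 for Mvk, −0.084 to 0.021 for Pmvk, −0.074 to 0.097 for Fdft1, −0.084 to 0.020 for Sqle and −0.0025 to 0.14 for Nsdhl. It ran from −0.16 to 0.057 for Hsd17b7, −0.038 to 0.057 for Dhcr7, −0.045 to 0.015 for Insig2, −0.14 to 0.033 for Nr1h3 and −0.11 to 0.015 for Cyp46a1. It ran from −0.054 to 0.012 for Acaca, −0.0029 to 0.032 for Fads1 and −0.025 to 0.064 for Fads2. With library size scaling the median of all genes was −0.034, and the cause of these changes was not tested. Counts limit the low members most, Nr1h3 and Fdps.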

Other observations

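Further genes of sterol and fatty acid handling passed the test under some settings only, and were picked after their values were seen. Osbp, an oxysterol-binding protein, was at 75.1, 75.0, 74.1 and 73.4 CPM in hypoxia and 82.3, 90.4, 79.7 and 87.1 CPM in normoxia, without overlap. Its log2 change was −0.19 (adjusted p = 0.0783 by edgeR), and it was called with DESeq2 and with library size scaling. Acsl3, an acyl-CoA synthetase of lipid droplets, was at 287, 273, 284 and 272 CPM in hypoxia and 264, 233, 234 and 231 CPM in normoxia, also without overlap (log2 0.22, adjusted p = 0.0734 by edgeR), and it was called with DESeq2. Elovl7 was called with DESeq2, with library size scaling, without normoxia replicate 2 and without both normoxia replicate 2 and hypoxia replicate 4. Erlin2, which takes part in sterol-driven degradation at the endoplasmic reticulum (log2 0.15), and Lipa, the lysosomal lipase that frees cholesterol (log2 −0.40), were called only without both of those 2.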
